A study of Mus musculus with 11 samples.

Results

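The clade A serpins described here were 10 genes taken from a list: Serpina3c, Serpina3f, Serpina3g, Serpina3i, Serpina3k, Serpina3m, Serpina3n, Serpina1e, Serpina12 and Serpina4-ps1. A gene was found where a probe's accession led to its symbol in the RefSeq mouse table, which held for 9 of the 10 genes, with 12 probes. They stood among 37208 genes and unnamed transcripts on the array. No accession led to Serpina3g, and it has no value here. The 10 genes were selected on their signal and its differences between groups in these same arrays, so their levels and differences are a description and carry no p-value.

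Liver RNA of 11 male mice was hybridised, 1 mouse per Agilent 1-colour array, from 4 wild-type (WT), 3 β-catΔEx3 and 4 β-catΔEx3:Myc mice. β-catΔEx3 is a β-catenin that lacks the stretch encoded by exon 3, whose phosphorylation marks the protein for degradation, and Myc is a growth-driving transcription factor. All groups share a mixed background that is largely B6SJL with some 129S6, and no mouse was treated. Ages were given per mouse only for the 3 arrays of slide 4, at 31 days (WT), 30 days (β-catΔEx3) and 29 days (β-catΔEx3:Myc), and otherwise only as 22 to 40 days. The labels name no promoter, Cre driver or cell type for either allele. The series speaks of livers with tumours for all samples, WT included. Its design text names only c-Myc for the β-catΔEx3:Myc group, and the mutant β-catenin of those mice is known here from the sample labels. A level below is the log2 of a probe's signal over the upper quartile (75th percentile) of its array, listed in replicate order. Nothing in the labels says more than that the livers are separate samples, so SDs measure the spread between these samples.

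Serpins are protease inhibitors that offer a reactive loop as bait and trap the enzyme that cuts it. Clade A holds mostly secreted plasma proteins made by hepatocytes. In mice the single human genes for α1-antitrypsin, the inhibitor of neutrophil elastase, and α1-antichymotrypsin, the inhibitor of cathepsin G, correspond to clusters of copies (Serpina1a to Serpina1f and Serpina3a to Serpina3n). The copies differ most in the reactive loop and so in the proteases they bind. They are alike in the rest of their sequence, and signal from 1 copy may reach the probe of another.

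The upper quartile of the signal lay between 225 and 352 intensity units across arrays, and 47.9% to 52.4% of probes were well above background. Hepatocyte markers were present on every array: the summed level of 8 of 8 listed genes, in multiples of the upper quartile, was 6680 to 8590 in WT, 4170 to 4860 in β-catΔEx3 and 3670 to 5230 in β-catΔEx3:Myc. One of the 8 is Serpina1a, described below, and without it the sums were 5320 to 6790, 3800 to 4290 and 3280 to 4030. The arrays lay on 4 slides scanned on 3 days. Slide 1 held WT replicates 1 to 3, slide 2 held β-catΔEx3 and β-catΔEx3:Myc replicates 1 and 2, slide 3 held β-catΔEx3:Myc replicate 3, and slide 4 held WT replicate 4, β-catΔEx3 replicate 3 and β-catΔEx3:Myc replicate 4. Slides 1 and 2 were scanned on the same day. A fit with slide as a fixed block therefore compares WT with the mutants through WT replicate 4 alone. In bulk liver, fewer cells of a type and less RNA per cell cannot be told apart.

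The 9 genes did not move as a block. Serpina4-ps1 and Serpina3k were lower in both mutant groups than in any WT liver. Serpina3i and Serpina3f, each on its brighter probe, stood apart chiefly in β-catΔEx3:Myc, far below the other 2 groups. The second Serpina3f probe placed its larger gap between WT and β-catΔEx3. The second Serpina3i probe, which was dim, spread its drop over both steps. Serpina1e was lowest in β-catΔEx3, and Serpina3m overlapped between all groups.

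**Figure D1:**
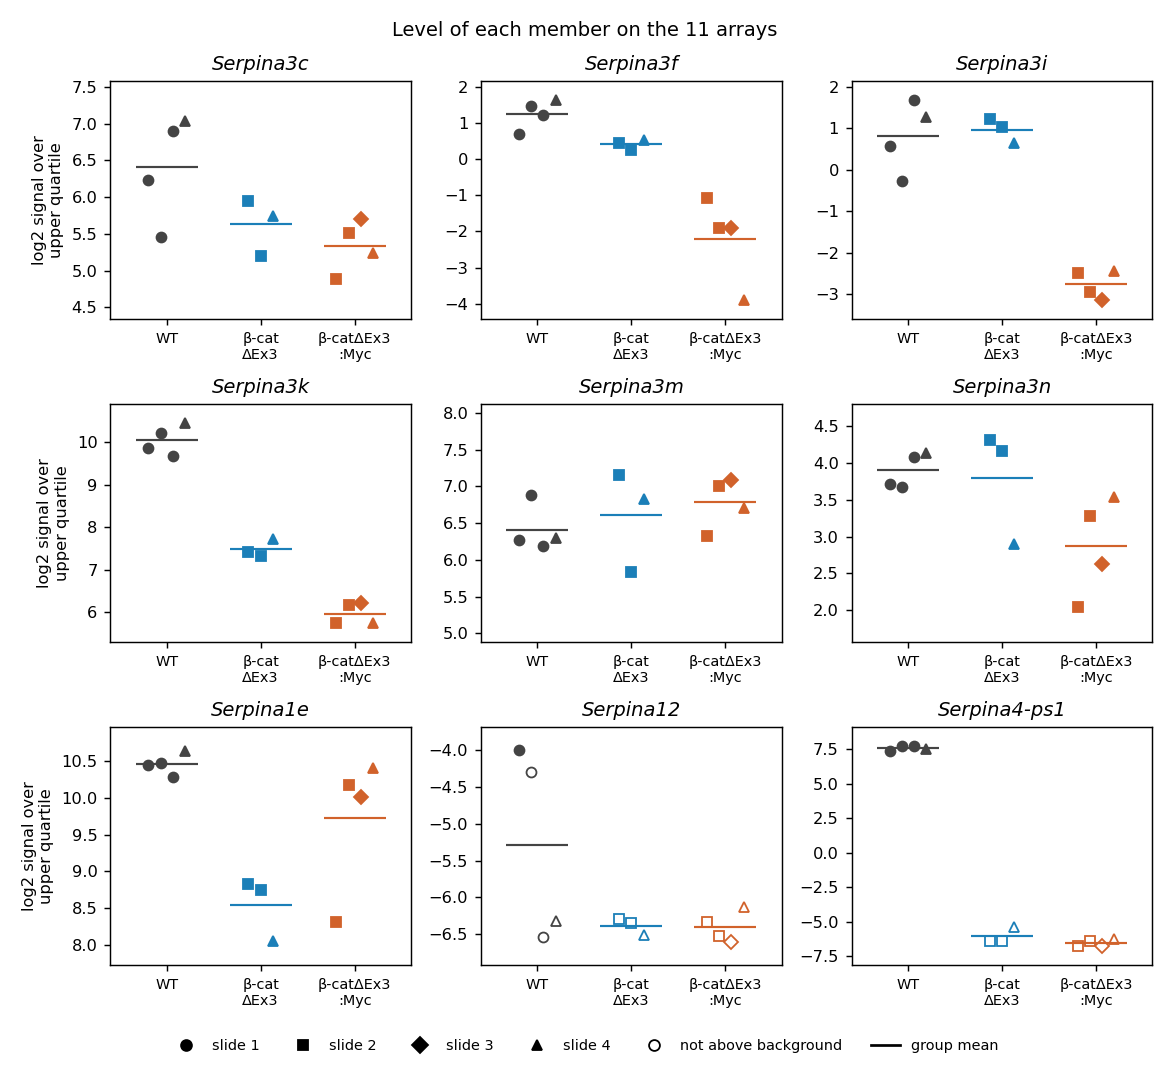
Level of each of the 9 genes on the 11 arrays (vertical axis, log2 signal over the array's upper quartile; horizontal axis, group). Each point is 1 array, its shape gives the slide, open points are not well above background, and the line is the group mean; Serpina4-ps1 is between 7.34 and 7.75 in WT and not above background on any mutant array.

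The pseudogene Serpina4-ps1 showed the widest separation. RefSeq lists it as a transcribed pseudogene of the family of kallistatin, an inhibitor of tissue kallikrein. Its level was 7.34, 7.75, 7.75 and 7.51 in the 4 WT livers. On the 3 β-catΔEx3 arrays the probe read -6.37, -6.41 and -5.38, and on the 4 β-catΔEx3:Myc arrays -6.71, -6.37, -6.76 and -6.20, none of them well above background. With the scanner's own background subtraction, WT was set against the lowest signal that passed as above background on each mutant array. On that footing its level was at least 6270-fold lower in β-catΔEx3 and at least 4670-fold lower in β-catΔEx3:Myc than in WT. With background corrected by normexp in place of the scanner's own subtraction, the measured folds were 816 and 853, below those bounds. The size of the gap therefore rests on how the background is taken, while its presence does not: every mutant array was at background and every WT array was bright. Within slide 4, which held 1 array of each group, WT replicate 4 was at 7.51 and the mutants at -5.38 and -6.20.

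Serpina3k, a contrapsin-like inhibitor known as an abundant product of the rodent liver, lay at 3 separate levels. Its level was 9.86, 10.20, 9.67 and 10.45 in WT, 7.41, 7.33 and 7.72 in β-catΔEx3, and 5.74, 6.18, 6.22 and 5.74 in β-catΔEx3:Myc. No array of one group overlapped with another group. The mean was 5.89-fold lower in β-catΔEx3 than in WT (log2 difference -2.56 ± 0.22, SE), and 16.8-fold lower in β-catΔEx3:Myc than in WT (-4.07 ± 0.20). β-catΔEx3:Myc lay 2.86-fold below β-catΔEx3 (-1.51 ± 0.22), by -1.41 within slide 2 and by -1.97 within slide 4. Leaving out 1 array moved that last value little, to -1.40 without β-catΔEx3 replicate 3 and to -1.60 without β-catΔEx3:Myc replicate 3.

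Serpina3i and Serpina3f lie in the same stretch of chromosome 12, with Serpina3g and Serpina3h between them. The level of Serpina3i was 0.58, -0.27, 1.68 and 1.27 in WT and 1.23, 1.03 and 0.63 in β-catΔEx3. In β-catΔEx3:Myc it was -2.48, -2.94, -3.15 and -2.44. WT and β-catΔEx3 overlapped, and all 4 β-catΔEx3:Myc arrays lay below both. The mean in β-catΔEx3:Myc was 11.8-fold below WT (-3.56 ± 0.37) and 13.1-fold below β-catΔEx3 (-3.71 ± 0.40), whereas β-catΔEx3 and WT differed by 0.15 ± 0.40. The gap between the mutant groups was -3.84 within slide 2 and -3.07 within slide 4. Normexp gave smaller folds, 5.9 and 6.4. A second, dim Serpina3i probe was above background on 4 of 4 WT, 1 of 3 β-catΔEx3 and 0 of 4 β-catΔEx3:Myc arrays. With the scanner's background subtraction it put β-catΔEx3:Myc at least 2.49-fold below WT, but normexp gave 1.33-fold. Its WT and β-catΔEx3 readings overlapped. On this probe the mean of β-catΔEx3 lay below WT (-1.05). The gap between the mutant groups was -1.33, or at least 1.21-fold with the scanner's subtraction and 1.13-fold with normexp.

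Serpina3f was 0.69, 1.47, 1.22 and 1.64 in WT, 0.46, 0.24 and 0.54 in β-catΔEx3, and -1.08, -1.90, -1.91 and -3.91 in β-catΔEx3:Myc. The 3 groups did not overlap. β-catΔEx3:Myc was 11-fold below WT (-3.46 ± 0.49; 5.62-fold with normexp) and 6.13-fold below β-catΔEx3 (-2.61 ± 0.53; 3.43-fold with normexp), and β-catΔEx3 lay 1.8-fold below WT (-0.84 ± 0.53). The gap between the mutant groups was -1.84 within slide 2 and -4.45 within slide 4. β-catΔEx3:Myc replicate 4 was the lowest array by far, and without it the difference between the mutant groups was -2.04. The second Serpina3f probe read -0.80, 1.19, -0.59 and -0.67 in WT, -2.10, -2.87 and -2.45 in β-catΔEx3, and -3.24, -4.35, -2.81 and -3.56 in β-catΔEx3:Myc. On this probe the larger gap was between WT and β-catΔEx3 (-2.26), and the one between the mutant groups was -1.01. Both probes gave the same order of group means but placed the drop differently, and on the second the mutant groups overlapped.

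The promoters of Serpina3f and Serpina3i are printed with those of Serpina3c and Serpina3n, because the 4 genes are neighbours of common origin whose levels parted in β-catΔEx3:Myc. Each line gives the 250 bases before the start site in RefSeq's GRCm38.p6, for Serpina3f the first of its 2 start sites. Capitals mark matches to the STAT core TTCNNNGAA and to the C/EBP core TTNNGNAA, searched on both strands.
Serpina3f (chr12:104214294-104214543, plus strand): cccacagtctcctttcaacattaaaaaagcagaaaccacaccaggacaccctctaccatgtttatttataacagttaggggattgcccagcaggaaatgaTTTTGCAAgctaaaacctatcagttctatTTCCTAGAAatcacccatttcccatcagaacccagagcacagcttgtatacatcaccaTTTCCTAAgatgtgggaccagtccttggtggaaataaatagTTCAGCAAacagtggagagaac
Serpina3i (chr12:104262872-104263121, plus strand): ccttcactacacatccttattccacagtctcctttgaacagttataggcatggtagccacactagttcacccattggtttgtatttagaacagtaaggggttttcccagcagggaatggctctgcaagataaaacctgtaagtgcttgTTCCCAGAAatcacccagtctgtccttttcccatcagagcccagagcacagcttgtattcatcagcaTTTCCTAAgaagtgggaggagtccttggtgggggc
Serpina3c (chr12:104153873-104154122, minus strand): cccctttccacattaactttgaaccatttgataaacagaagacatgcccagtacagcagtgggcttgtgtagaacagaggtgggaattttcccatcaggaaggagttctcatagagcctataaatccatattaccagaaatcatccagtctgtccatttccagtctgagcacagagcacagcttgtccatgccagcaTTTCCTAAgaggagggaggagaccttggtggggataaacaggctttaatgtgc
Serpina3n (chr12:104406458-104406707, plus strand): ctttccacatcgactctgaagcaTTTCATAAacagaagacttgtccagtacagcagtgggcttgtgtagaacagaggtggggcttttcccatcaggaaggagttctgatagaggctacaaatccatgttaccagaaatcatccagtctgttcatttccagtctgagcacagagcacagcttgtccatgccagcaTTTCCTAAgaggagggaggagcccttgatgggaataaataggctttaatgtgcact

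STAT factors act downstream of cytokine receptors, and C/EBP factors are bound at many liver promoters. The STAT core was found in Serpina3f at -121 to -113, in Serpina3i at -102 to -94 and in Serpina3g at -33 to -25, counted from the start site. That is 3 of the 7 listed genes that have a promoter entry, against 7.02% of 32851 entries of the same length. Among the other clade A promoters the STAT core was in Serpina1f, Serpina11 and Agt. In β-catΔEx3 and β-catΔEx3:Myc against WT, Serpina11 differed by -4.37 and -3.89 and Agt by -0.69 and 0.03. Serpina1f was too dim to test. At the aligned place, with positions counted from 1 at the 5′ end of the Serpina3i letters TTCCCAGAA, Serpina3f carries C5T and keeps the core. Serpina3c and Serpina3n both carry C3A (TTACCAGAA) and do not match it. Serpina3b, with T2C, C3A and G7T, does not match it either. The C/EBP core was in 7 of 7 promoters, against 36.8% of all entries. The TCF/LEF core CTTTGA was in Serpina3c, Serpina3i and Serpina12 (13.8% of all entries). The E-box CACGTG, the form bound by Myc and Max, was in 0 of 7 (6.02% of all), the core of the interferon response element in 0 of 7 (2.98%), and the strict HNF1 palindrome in 0 of 7 (0.00913%). These matches describe letters only. No promoter entry was found for Serpina3k, Serpina3m and Serpina4-ps1.

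Serpina3c and Serpina3n have promoters that are 90.5% identical, against 64.7% for Serpina3f and Serpina3i. Serpina3n is an acute-phase inhibitor of granzyme B and leukocyte elastase. It read 3.71, 3.68, 4.09 and 4.14 in WT, 4.32, 4.17 and 2.90 in β-catΔEx3, and 2.05, 3.28, 2.63 and 3.54 in β-catΔEx3:Myc. β-catΔEx3:Myc lay below WT without overlap, by 2.05-fold (-1.03 ± 0.37), while β-catΔEx3 overlapped with both groups. The difference between the mutant groups (-0.92 ± 0.40) was -1.58 within slide 2 and 0.63, the other way, within slide 4, where β-catΔEx3 replicate 3 is the low array. Without that array β-catΔEx3 lay 0.34 above WT, and with it 0.11 below. The β-catΔEx3:Myc difference from WT was -1.34 with slide and -0.95 with scan day as a block, and it was smallest without β-catΔEx3:Myc replicate 1 (-0.76).

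Serpina3c, known as a kallikrein-binding protein, was 6.24, 5.46, 6.90 and 7.03 in WT, 5.95, 5.20 and 5.74 in β-catΔEx3, and 4.89, 5.51, 5.71 and 5.24 in β-catΔEx3:Myc. The groups overlapped through WT replicate 2, which was the lowest WT array. β-catΔEx3:Myc was 2.1-fold below WT on average (-1.07 ± 0.34), and β-catΔEx3 was 1.72-fold below (-0.78 ± 0.37). The β-catΔEx3:Myc difference was -1.75 with slide as a block and -0.86 without WT replicate 4.

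Serpina3m, another copy of the contrapsin group, was the bright member whose groups overlapped throughout. It read 6.27, 6.88, 6.19 and 6.30 in WT, 7.16, 5.84 and 6.83 in β-catΔEx3, and 6.33, 7.01, 7.09 and 6.70 in β-catΔEx3:Myc. Its differences were 0.20 ± 0.32 (95% confidence interval -0.5 to 0.9) for β-catΔEx3 and 0.37 ± 0.29 (-0.28 to 1.02) for β-catΔEx3:Myc, both against WT, and 0.17 ± 0.32 (-0.53 to 0.87) between the mutant groups. Serpina3k and Serpina3m follow each other on the chromosome among the clade A genes read here. The β-catΔEx3:Myc difference from WT was -4.07 for the first and 0.37 for the second.

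**Figure D2:**
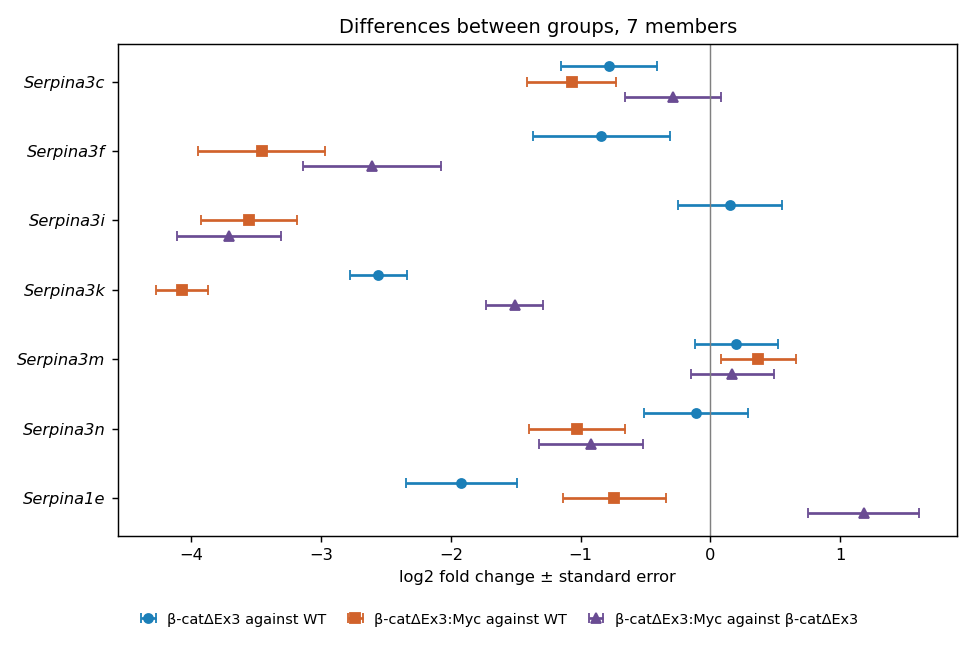
Log2 fold change ± standard error (horizontal axis) of 7 genes (vertical axis) in the 3 comparisons, from limma on all 11 arrays; Serpina4-ps1, for which only a bound exists, and Serpina12 are left out. Serpina3i and Serpina3f lie far left in both β-catΔEx3:Myc comparisons, Serpina3k lies left of 0 in all 3, Serpina3m lies close to 0, and Serpina1e is the one gene right of 0 between the mutant groups beyond its standard error.

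Serpina1e is the copy of α1-antitrypsin on the list. Its level was 10.45, 10.48, 10.29 and 10.64 in WT, 8.83, 8.74 and 8.05 in β-catΔEx3, and 8.31, 10.18, 10.01 and 10.40 in β-catΔEx3:Myc. β-catΔEx3 lay below every WT array, by 3.79-fold (-1.92 ± 0.43). On this brighter probe, β-catΔEx3:Myc replicates 2 to 4 were close to WT or within it, and replicate 1 was as low as β-catΔEx3. The mean difference from WT in β-catΔEx3:Myc was -0.74 ± 0.40, and β-catΔEx3:Myc exceeded β-catΔEx3 by 1.18 ± 0.43. That last value was 0.46 within slide 2 and 2.35 within slide 4. Without β-catΔEx3:Myc replicate 1 it was 1.65. The second probe read 9.83, 9.77, 9.63 and 10.03 in WT, 7.57, 7.59 and 6.68 in β-catΔEx3, and 6.86, 8.93, 8.90 and 9.39 in β-catΔEx3:Myc. It gave larger differences from WT (-2.53 and -1.30), and on it all β-catΔEx3:Myc arrays lay below WT, whereas the groups overlapped on the first probe. With slide as a block the β-catΔEx3 difference from WT on the first probe was -1.95.

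The copies Serpina1a, Serpina1c and Serpina1d were also low on the 3 β-catΔEx3 arrays and on replicate 1 of β-catΔEx3:Myc. Serpina1f was above background only on β-catΔEx3:Myc replicate 4 and was not tested, and no probe was found for Serpina1b. Serpina1c was 10.56, 10.54, 10.48 and 10.82 in WT, 9.18, 9.08 and 8.42 in β-catΔEx3, and 8.64, 10.33, 10.18 and 10.54 in β-catΔEx3:Myc. After centring each gene on its own mean, Serpina1e differed from Serpina1c by 0.10 and from Serpina1a by 0.18 (root mean square, log2, over 11 arrays). Probes of such close copies may share signal, so these are not separate measurements of 3 genes. Serpina1d, whose profile was 0.53 from that of Serpina1e, had the largest difference: it fell 8.57-fold in β-catΔEx3 (-3.10 ± 0.50, limma adjusted p = 0.00109) and 3.31-fold in β-catΔEx3:Myc (-1.73 ± 0.46, adjusted p = 0.0121) against WT. With slide as a block these were -3.15 (adjusted p = 0.0887) and -1.87 (adjusted p = 0.255). Serpina1a fell 3-fold (-1.59 ± 0.38, adjusted p = 0.00801) and Serpina1c 3.27-fold (-1.71 ± 0.40, adjusted p = 0.0077) in β-catΔEx3, and both calls were lost with slide as a block (adjusted p = 0.165 and 0.185). For Serpina1a, Serpina1d and Serpina1e alike, the dimmer probe of the gene showed the larger difference from WT. It reached -3.47 for Serpina1a and -4.15 for Serpina1d in β-catΔEx3. In WT the brighter probes of Serpina1a and Serpina1e averaged 397000 and 384000 intensity units. Whether signal was compressed at such heights, making differences too small, was not tested.

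**Figure D3:**
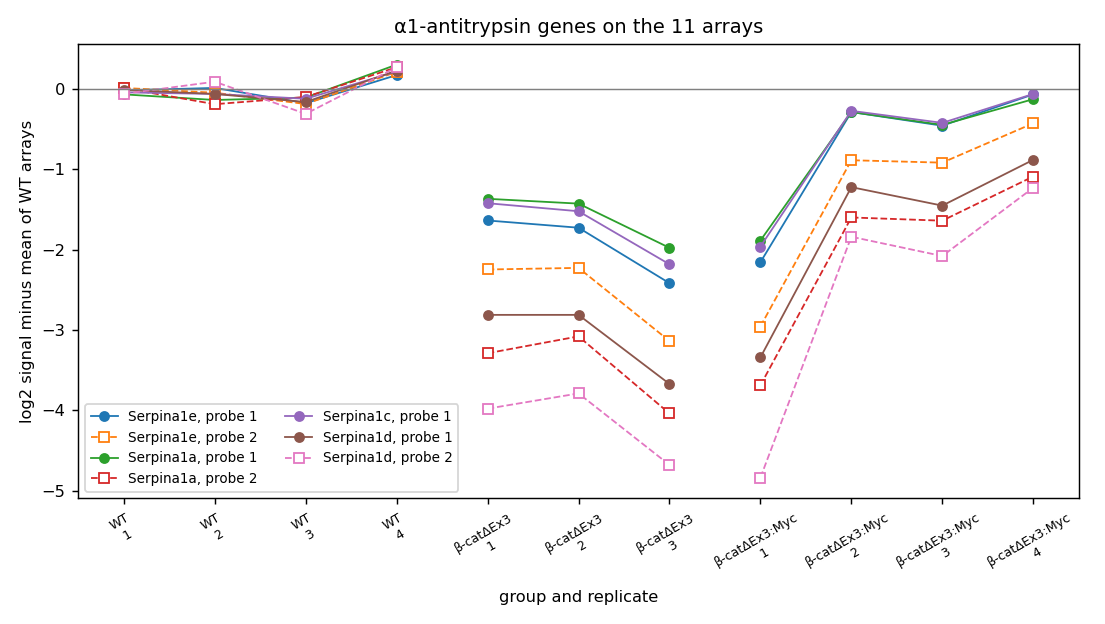
Log2 signal of 7 probes of 4 α1-antitrypsin copies minus that probe's mean over the WT arrays (vertical axis) on each array (horizontal axis, group and replicate); dashed lines with open squares are second probes, and lines only join the points of a probe within a group. All 7 probes are low on the 3 β-catΔEx3 arrays and on β-catΔEx3:Myc replicate 1, and nearer to WT on β-catΔEx3:Myc replicates 2 to 4.

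Serpina12 (vaspin), an adipose hormone and inhibitor of kallikrein 7, was well above background only on WT replicate 1. Its readings were -4.00, -4.30, -6.54 and -6.32 in WT, -6.29, -6.35 and -6.51 in β-catΔEx3, and -6.33, -6.53, -6.60 and -6.13 in β-catΔEx3:Myc. The higher WT readings were replicates 1 and 2, and the remaining WT arrays were as low as the mutants. It did not pass the filter on dim probes and was not tested.

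Of the 9 genes found, 8 passed that filter, which asks for signal above background on at least 3 arrays, and so could be called at an adjusted p of 0.05. In β-catΔEx3 against WT, 3 of 8 were called, all lower (Serpina3k, Serpina1e and Serpina4-ps1), where 36.8% of all 22283 items tested were called, 21.1% higher and 15.6% lower. In β-catΔEx3:Myc against WT, 6 of 8 were called, all lower (Serpina3c, Serpina3f, Serpina3i, Serpina3k, Serpina3n and Serpina4-ps1). There 42.3% of all items were called, 25% higher and 17.2% lower. The Serpina3n call held in only 8 of 19 alternative settings and the Serpina3c call in 14 of 19. Between the mutant groups, 2 of 8 were called, both lower in β-catΔEx3:Myc (Serpina3i and Serpina3k), where 0.251% of all items were called, 0.108% higher and 0.144% lower. The Serpina3i call held in 18 of 18 alternative settings and the Serpina3k call in 13 of 18. All settings use the same arrays. The genes were listed with these contrasts known, and nothing is read from those counts or from how often a call held. An unadjusted p under 0.05 was reached by 3, 6 and 5 of the 8 genes in the 3 comparisons, where 46.6%, 50.2% and 10.3% of all items reached it. Groups did not overlap for 4, 5 and 3 of the 8 genes in the same order, where 43.6%, 42.3% and 8.1% of all items did not. The median log2 difference of the 8 genes was -0.81, -2.27 and -0.69, against 0.09, 0.13 and 0.02 over all items. With slide as a block, 2, 4 and 2 genes were called, where 8.02%, 8.64% and 0.812% of all items were. The comparisons with WT share the WT arrays, and those with β-catΔEx3 share the β-catΔEx3 arrays. Over all items the split of calls depended on the scaling: with the percentile taken over probes above background on all arrays, β-catΔEx3 against WT gave 3412 higher and 4664 lower in place of 4708 and 3485, β-catΔEx3:Myc against WT gave 4427 and 4748 in place of 5580 and 3839, and the mutant groups 20 and 15 in place of 24 and 32.

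The rest of clade A was read from a list of 17 genes, of which 15 had a probe and 13 passed the filter. In β-catΔEx3 against WT, 7 of 13 were called lower (Serpina1a, Serpina1c, Serpina1d, Serpina3h, Serpina9, Serpina10 and Serpina11) and none higher. Of all items, 36.8% were called, 15.6% lower. In β-catΔEx3:Myc against WT, 6 of 13 were called lower (Serpina1d, Serpina3a, Serpina3h, Serpina9, Serpina10 and Serpina11) and none higher. Of all items, 42.3% were called there, 17.2% lower. Serpina3a overlapped with WT and was above background on 2 of 4 β-catΔEx3:Myc arrays. It fell 4.92-fold, or 1.98-fold with normexp, and its call held in 11 of 19 alternative settings. With slide as a block 3 of 13 were called in each, where 8.02% and 8.64% of all items were. Medians over the 13 genes were -1.59 and -1.21. Serpina9, known as centerin from germinal-centre B cells, read 2.84, 2.57, 2.45 and 2.90 in WT, -3.59, -3.30 and -3.26 in β-catΔEx3, and -3.91, -4.26, -3.48 and -3.37 in β-catΔEx3:Myc. It fell 67.4-fold in β-catΔEx3 (-6.08 ± 0.23, limma adjusted p = 1.55e-07) and 87.2-fold in β-catΔEx3:Myc (-6.45 ± 0.21, adjusted p = 4.37e-08), or 20.9-fold and 22.8-fold with normexp. Serpina11, a liver serpin of little-studied function, fell 20.7-fold in β-catΔEx3 (-4.37 ± 0.26, adjusted p = 5.35e-06) and 14.8-fold in β-catΔEx3:Myc (-3.89 ± 0.24, adjusted p = 4.1e-06). These neighbours of Serpina12 and Serpina4-ps1 had no overlap between WT and either mutant group.

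Serpina3h, a transcribed pseudogene in RefSeq that lies between Serpina3g and Serpina3i, repeated the steps of Serpina3k. Its signal in WT averaged 6250, against 289000 for Serpina3k, and their centred profiles differed by 0.48 (root mean square, log2). Probes of close copies may share signal, so they may not be separate measurements. Serpina3h read 4.39, 4.29, 4.40 and 5.0 in WT, 1.02, 0.87 and 1.41 in β-catΔEx3, and -0.90, -0.40, -0.26 and -0.58 in β-catΔEx3:Myc. It fell in β-catΔEx3 (-3.42 ± 0.23, limma adjusted p = 7.61e-06) and 33.2-fold in β-catΔEx3:Myc (-5.05 ± 0.21, adjusted p = 3.27e-07) against WT. It was the 1 other clade A gene of 13 called between the mutant groups, where 0.251% of all items were called. It was 3.11-fold lower in β-catΔEx3:Myc (-1.64 ± 0.23, limma adjusted p = 0.0247), a call lost without β-catΔEx3:Myc replicate 2 or 4 or β-catΔEx3 replicate 3. Serpina10, which inhibits coagulation factor Xa with protein Z, fell in β-catΔEx3 (-1.11 ± 0.22, limma adjusted p = 0.0038) and in β-catΔEx3:Myc (-0.98 ± 0.20, adjusted p = 0.00396; 3 WT arrays, since an outlier spot was dropped on WT replicate 2). Its second probe differed by -1.14 and -0.95. Both calls were lost with slide as a block (-1.38 and -1.17, adjusted p = 0.068 and 0.0953). The plasma carriers of hormones did not pass the test: Serpina6, which carries corticosteroids, differed by -1.68 ± 0.66 and -1.21 ± 0.61, and Serpina7, which carries thyroxine and lies on chromosome X, by -0.84 ± 0.45 and 0.39 ± 0.42. Agt, the serpin-fold precursor of angiotensin, differed by -0.69 ± 0.33 and 0.03 ± 0.31.

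From the list of 10 and the list of 17 clade A genes, 25 lie on chromosome 12 and run from Serpina10 to Serpina3n. Genes on neither list were not placed. By the brightest probe of each gene, the 4 largest drops in β-catΔEx3 against WT were those of Serpina4-ps1, Serpina9, Serpina11 and Serpina3h. Among the 25, the first 3 of these lie within 4 consecutive places (Serpina11, Serpina9, Serpina12, Serpina4-ps1). In β-catΔEx3:Myc against WT the order by the same probes was Serpina4-ps1, Serpina9, Serpina3h, Serpina3k and Serpina11. At the Serpina3 end, the differences were unequal. In β-catΔEx3 and β-catΔEx3:Myc against WT, Serpina3a differed by -1.32 and -2.30, Serpina3b by 0.60 and 0.27, Serpina3c by -0.78 and -1.07, Serpina3f by -0.84 and -3.46, Serpina3h by -3.42 and -5.05, Serpina3i by 0.15 and -3.56, Serpina3k by -2.56 and -4.07, Serpina3m by 0.20 and 0.37, and Serpina3n by -0.11 and -1.03. In β-catΔEx3:Myc the 4 tested genes from Serpina3f to Serpina3k all lay far below WT, though their probes may share signal.

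**Figure D4:**
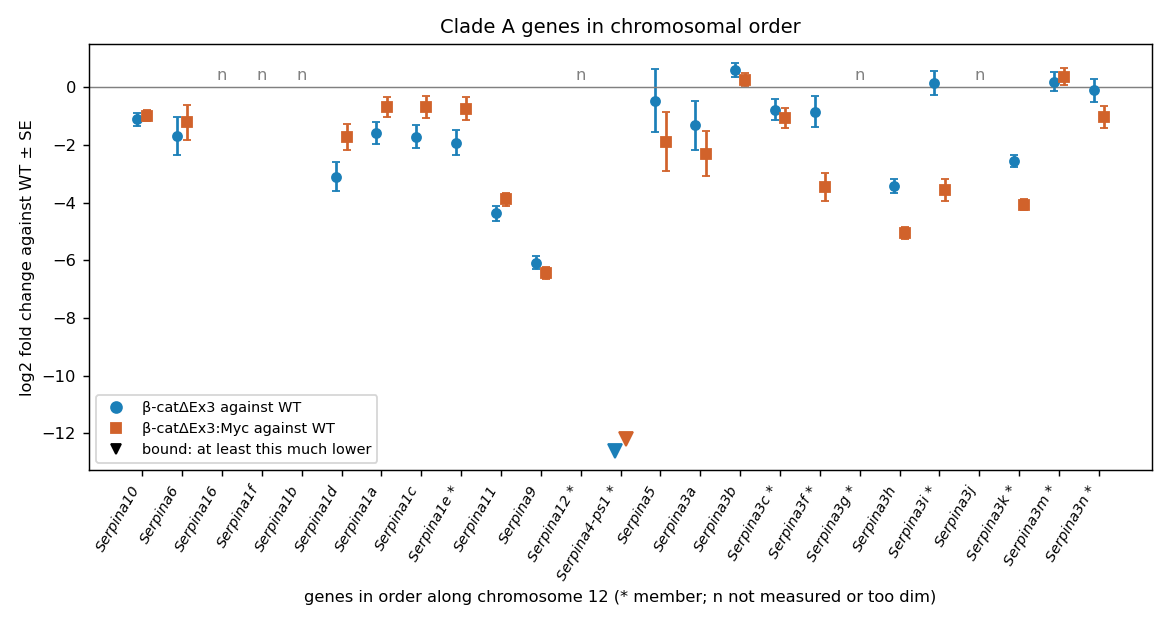
Log2 fold change against WT ± standard error (vertical axis) of clade A genes in their order along chromosome 12 (horizontal axis, order only); circles are β-catΔEx3, squares β-catΔEx3:Myc, triangles the bound for Serpina4-ps1, asterisks the listed genes and n a gene without a probe or too dim to test. The lowest values sit at Serpina11, Serpina9 and Serpina4-ps1 and at Serpina3h and Serpina3k, with Serpina3b and Serpina3m near 0.

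The genes with the most similar profiles were taken as the 3 named genes with the smallest root mean square difference over 11 arrays, after centring. For Serpina3k they were Igf1 (0.36), Homer2 (0.43) and Serpina3h (0.48). For Serpina3i they were Wfdc18 (0.85), Serpina3f (0.99) and Fgl2 (1), and for Serpina3f they were Tcf21 (0.70), Gpr153 (0.71) and Krt80 (0.73). For Serpina4-ps1 none was close: Mup2 (2.43), Wfdc21 (2.48) and Hsd3b5 (2.49) came first. Serpina3m was nearest to Sesn2 (0.20), Serpina3c to Snora47 (0.30) and Serpina3n to Krtap11-1 (0.22), with Krt42 next at 0.42.

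Lists of related genes are read against all items, of which 36.8% were called in β-catΔEx3 and 42.3% in β-catΔEx3:Myc against WT, or 8.02% and 8.64% with slide as a block. Of 11 tested proteases of the kind these inhibitors bind, 6 fell and 2 rose in each mutant group, and 1 and 3 were called with slide as a block. Their median difference was -1.61 in β-catΔEx3 and -1.94 in β-catΔEx3:Myc, against 0.09 and 0.13 over all items. Klk1, tissue kallikrein, fell in both (-4.28 ± 0.72, limma adjusted p = 0.00139; -4.96 ± 0.67, adjusted p = 0.000309), and was above background on 1 of 3 and 1 of 4 mutant arrays, so that both sizes depend on readings at background. Ctsc, which activates the granule proteases of leukocytes, also fell in both (-4.22 ± 0.51, adjusted p = 0.000253; -4.74 ± 0.47, adjusted p = 5.62e-05). Ctsg, cathepsin G of neutrophil granules, was higher in β-catΔEx3:Myc than in β-catΔEx3 (4.10 ± 0.65, adjusted p = 0.035), where it was above background on 1 of 3 arrays, and higher than in WT (2.49 ± 0.60, adjusted p = 0.00731). Elane, neutrophil elastase, was higher in β-catΔEx3 than in WT (1.84 ± 0.34, adjusted p = 0.00213) and was not called in β-catΔEx3:Myc (0.79 ± 0.31, adjusted p = 0.0637). Of other granule proteases, Prtn3 (proteinase 3) and Gzma (granzyme A) fell against WT in both mutant groups. With the scanner's background subtraction, Prtn3 was at least 8.03-fold lower in β-catΔEx3 (limma adjusted p = 0.000536). Prtn3 differed by -1.94 ± 0.43 in β-catΔEx3:Myc (limma adjusted p = 0.00454). Gzma differed by -3.95 ± 0.81 (limma adjusted p = 0.00381) and -3.06 ± 0.75 (adjusted p = 0.0076). The serpins of other clades had 8 of 13 lower and 1 higher in β-catΔEx3, and 9 of 13 lower and 1 higher in β-catΔEx3:Myc, with 5 and 2 called when slide was a block. Their medians were -1.62 and -1.06. Among them was Serpinh1, the collagen chaperone (-1.84 ± 0.36, adjusted p = 0.00317, and -2.65 ± 0.34, adjusted p = 0.00022). Serpinc1, antithrombin, differed little (-0.38 ± 0.15, adjusted p = 0.0642, and -0.40 ± 0.14, adjusted p = 0.037). None of the 13 was called between the mutant groups, where 1 had an unadjusted p under 0.05.

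Serpina3 genes are known targets of IL-6 family cytokines through Stat3 and of growth hormone through Stat5. Of 11 tested genes of the Stat3 axis, 3 fell in each mutant group against WT and none was called higher, a smaller share than over all items. Under the slide block 1 and 2 were called, and the medians were -0.15 and -0.20. Lifr, the receptor of leukaemia inhibitory factor, fell most (-3.91 ± 0.28, limma adjusted p = 1.11e-05, in β-catΔEx3 and -4.01 ± 0.26, adjusted p = 4.55e-06, in β-catΔEx3:Myc), with Il6st and Jak2. Stat3 itself differed by 0.12 ± 0.16 and 0.32 ± 0.14 and was not called. Of 10 genes of the growth hormone axis, 5 fell in β-catΔEx3 and 6 in β-catΔEx3:Myc, or 3 and 4 with slide as a block, with medians of -1.43 and -2.09. Igf1, the chief growth hormone target of the liver, fell in both (-2.83 ± 0.17, adjusted p = 5.35e-06, and -4.73 ± 0.16, adjusted p = 5.59e-08), and it was the 1 gene of the 10 called between the mutant groups, lower in β-catΔEx3:Myc (-1.89 ± 0.17, adjusted p = 0.00242). Among male-biased liver genes, which depend on the pulses of growth hormone in males, 10 of 15 fell in each mutant group, and 10 were called in each with slide as a block. With the scanner's background subtraction, Hsd3b5 was at least 821-fold lower in β-catΔEx3 (limma adjusted p = 3.63e-05). Mup3 fell in β-catΔEx3 (-9.87 ± 0.61, limma adjusted p = 5.4e-06) and in β-catΔEx3:Myc (-8.62 ± 0.57, limma adjusted p = 4.89e-06).

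Acute-phase genes as a list went both ways: 12 of 19 fell and 2 rose in β-catΔEx3, and 10 fell and 2 rose in β-catΔEx3:Myc, against WT. Under the slide block 3 and 4 of the 19 were called, and the medians were -1.45 and -1.07. Those that rose were Orm3 (4.77 ± 0.64, limma adjusted p = 0.000436, and 3.21 ± 0.59, adjusted p = 0.00173) and Lcn2 (3.70 ± 0.50, adjusted p = 0.000471, and 3.37 ± 0.46, adjusted p = 0.000344), while Serpina3n, of the same response, was not called higher in either group. Of 18 interferon response genes, 16 fell in each mutant group, where 36.8% and 42.3% of all items were called, and none was called higher. Iigp1 fell most in β-catΔEx3 (-4.39 ± 0.44, adjusted p = 8.66e-05). Under the slide block, 1 of 18 interferon genes was called in each comparison with WT, close to the share of all items (8.02% and 8.64%).

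Markers of other liver cells moved with the groups, and their part in the values above was not tested. All 9 measured macrophage markers fell in both mutant groups, and their summed level, in multiples of the upper quartile, was 181 to 265 in WT, 16.8 to 43.4 in β-catΔEx3 and 14.5 to 46.2 in β-catΔEx3:Myc. With slide as a block limma called 0 of the 9 in either comparison, and 5 in β-catΔEx3 and 7 in β-catΔEx3:Myc had an unadjusted p under 0.05. The 8 measured lymphocyte markers summed to 44.8 to 60.7, 16.7 to 36.7 and 20.6 to 44.1, with Cd8a, Cd79a, Ncr1 and Klrb1c not above background. The 5 endothelial markers summed to 104 to 122, 50.3 to 64.4 and 26.1 to 41.4, and the 6 stellate cell markers to 75.9 to 137, 61.3 to 68.8 and 24.9 to 49.6. Such sums follow the brightest genes, and not every marker fell. In β-catΔEx3 against WT, limma called 6 of 8 lymphocyte, 2 of 5 endothelial and 2 of 6 stellate markers lower. In β-catΔEx3:Myc against WT it called 6, 3 and 4 lower, and Cd3e of the lymphocyte list higher. Of all items, 15.6% and 17.2% were called lower. The 6 measured neutrophil markers summed to 5.54 to 10.2 in WT, 0.915 to 4.03 in β-catΔEx3 and 4.12 to 74 in β-catΔEx3:Myc, with Cxcr2 not above background. Between the mutant groups all 6 neutrophil markers had an unadjusted p under 0.05 and 0 were called by limma, while with slide as a block 3 of the 6 were called. Against WT, Ngp of neutrophil granules was higher in β-catΔEx3:Myc (2.84 ± 0.75, limma adjusted p = 0.0115).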

How the data were processed

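The authors deposited one Feature Extraction 10.7.1.1 file per array, per the file headers, with background-subtracted processed signal intensity, median foreground and background intensity, and spot flags. They also deposited a log2 matrix, quantile normalized between arrays (column median 4.51, ranks as in the scanner files), used as an alternative.

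Without control and outlier spots, each of 55681 probes was given the mean log2 signal of its spots, less the array's 75th percentile. A filter kept the 29697 probes above background on 3 or more arrays. Names came from RefSeq (26582 probes with a symbol), and the probe with the highest mean stood for a gene, giving 22283 items. The genes that are described and the lists were chosen with earlier results of these data known. Named genes were the listed genes, clade A genes, some of those with the largest changes of each list and the 3 most similar profiles. Others, such as Serpinc1 and Stat3, were named though their changes were small, and not every large change is named.

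Group means over the 11 arrays were fitted and compared with limma 3.58.1 in R 4.3.3 (package data.table, version 1.17.8; python 3.11.15), with 2-sided tests and Benjamini-Hochberg adjustment over all items at 0.05. The script was tested on simulated data. A bound on a fold sets each dim array to the lowest signal above background on that array or the probe's own signal, whichever is higher. It holds only under the scanner's background subtraction, and normexp can give a smaller fold. Brighter probes on the same array could still fail to count as above background. Mean foreground was not used, so normexp (offset 50) took the median foreground and background. The number of arrays limits the precision. Alternatives were other scalings, background corrections, filters, probe rules, slide or scan day as a block, and leaving out arrays. Scan day was added after seeing the data. No member spot was flagged as saturated by the scanner software.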

Additional observations from a re-analysis of the deposited data

Results flagged for a closer look

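Of 42 groups of 4 arrays, 4 held an array whose gap to its nearest neighbour, as a share of the group's range, exceeded Dixon's 95% critical value. The 42 include Serpina10 in WT, which had 3 values and was not tested. Chance gives about 1 in 20. Serpina3m on WT replicate 2 read 6.88, against 6.19 to 6.30 on the other WT arrays (ratio 0.834). WT replicate 4, the WT array on slide 4, was the high one for the other 3 genes. Serpina1a read 10.82 there, against 10.38 to 10.45 (ratio 0.849). Serpina3h read 5.0, against 4.29 to 4.40 (ratio 0.84). Agt read 5.5, against 4.72 to 4.81 (ratio 0.878).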

How the results depend on the processing

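Under the alternatives, 100 counts of called genes stayed within 1.5 times of the value reported and 10 did not, and no called difference of the listed genes turned its sign. With slide as a fixed block the other clade A genes called numbered 3 in β-catΔEx3 against WT (7 without the block) and 3 in β-catΔEx3:Myc against WT (6 without it). With only the 2 groups compared in the fit, the calls between the mutant groups were 1 listed gene (2 on all arrays) and 0 other clade A genes (1 on all arrays). Leaving out each array in turn gave 3 to 4, 4 to 5 and 1 to 2 listed genes, and 7 to 8, 5 to 7 and 0 to 4 other clade A genes, listed as β-catΔEx3 against WT, then β-catΔEx3:Myc against WT, then the mutant groups against each other. The 4 came without β-catΔEx3:Myc replicate 1, when Serpina1a (1.31), Serpina1c (1.46) and Serpina1d (1.91) were called higher; the 0 came without β-catΔEx3:Myc replicate 2 or 4 or β-catΔEx3 replicate 3. The listed genes had 1 call without β-catΔEx3:Myc replicate 2 or β-catΔEx3 replicate 3. The Serpina3k call between the mutant groups was lost in these runs and with only the 2 groups. It was also lost without β-catΔEx3:Myc replicate 1 or 4. There the count stayed at 2 because Serpina1e (without replicate 1) or Serpina3f (without replicate 4) was called instead. Over all items, slide as a block left 1787, 1925 and 181 calls in place of 8193, 9419 and 56. The 56 became 172 with scan day as a block, 115 with slide as a random block, 108 with probes above background on all arrays of a group, 35 with the other percentile and 8 with only the 2 groups; leaving out single arrays gave 10 to 179. The cause was not tested. No paired analysis was possible because no label ties a liver of one group to a liver of another, and replicates were numbered by accession order. Dim readings, such as those of Serpina12 and of Serpina4-ps1 in the mutants, are limited by background.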
